A study of Homo sapiens with 50 samples.

Results

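Aminoacyl-tRNA synthetases join each amino acid to its transfer RNA, so that the ribosome can build protein from the genetic code. Cells carry separate gene sets for the cytosol and for the mitochondrion, and all are encoded in the nucleus. Several cytosolic synthetase genes are known targets of ATF4, a transcription factor that is translated when the initiation factor eIF2 is phosphorylated during amino acid shortage or stress of the endoplasmic reticulum. The genes described here are 36 synthetase genes, 20 for cytosolic enzymes and 16 for mitochondrial enzymes, among 56567 gene names in the table. They were chosen by name, and all 36 passed the filter on low values, which left 24222 genes and unnamed loci for testing. GARS and KARS each also give rise to the mitochondrial form of their enzyme and are counted here as cytosolic.

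The 36 genes were measured by RNA sequencing in differentiated HepaRG, an established human liver line that grows as a mixture of cells resembling hepatocytes and bile duct epithelium. All 10 groups were kept from day 8 to day 14 in a test medium with 2% fetal bovine serum and 1% DMSO. The control group received no herbicide, and the other 9 received mesotrione, isoxaflutole or quizalofop-p-ethyl at 0.1 uM, 10 uM or 1 mM, with 5 libraries in each group. Nothing in the labels shows that the 5 were grown apart, so the p-values describe how far these samples scatter, and that scatter may be technical. Mesotrione and isoxaflutole are herbicides that act on a plant enzyme of tyrosine degradation, and quizalofop-p-ethyl blocks fatty acid synthesis in grasses.

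Levels are FPKM, fragments scaled to transcript length and to the fragments of the library, summed over the named transcripts of a gene. Fragment depth is not in the table. The FPKM of all features added up to 541874 to 801657 in 49 libraries, where 16996 to 20321 genes and loci reached 1 FPKM. With quizalofop-p-ethyl at 1 mM the sums were 569268 to 801657, against 559096 to 665377 in control. There 16996 to 17775 genes and loci reached 1 FPKM, against 17563 to 20321 in control. In replicate 5 of quizalofop-p-ethyl at 10 uM the sum was 234909 and 6782 reached that level, and 33 of the 36 synthetase genes had their lowest value of all libraries there. That library was left out. It is called the shallow library below for its low sum and few genes, while its fragment depth is not known. At 1 mM quizalofop-p-ethyl the 14 hepatocyte markers summed to 253 to 5860 FPKM, against 20614 to 25196 in control, and all 14 fell. Of 9 biliary markers, which summed to 87.4 to 187 against 635 to 726, 6 were tested and CD24, KRT19 and SPP1 fell, and EPCAM and CFTR stayed under 1 FPKM in every library of both groups. Of 10 stellate and mesenchymal markers 6 were tested, of which COL3A1, DCN, LUM and COL1A1 fell and PDGFRB rose, and of 6 leukocyte markers 3 were tested and LYZ and CD14 fell. The lists summed to 15.2 to 27.2 against 52.9 to 68.5 and to 2.72 to 15.6 against 8.75 to 36.2, with COL1A2, VIM, THY1, TAGLN, PTPRC and CD3E under 1 FPKM in every library of both groups. The part of these shifts in the results on synthetase genes was not tested, and fewer cells of a type and less RNA per cell cannot be told apart in bulk samples.

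Promoters are shown because genes of the amino acid response often carry a composite element for C/EBP and ATF factors. The RefSeq table of promoters (GRCh38.p14; 250 bases before to 50 after a start site) held 16 of the 20 cytosolic and 14 of the 16 mitochondrial genes. TGATGNAA, read on both strands, occurred in 1270 of all 35116 promoters (3.62%). It occurred in 7 of 21 promoters of cytosolic genes (33.3%), 1 in each of 7 genes, and in 1 of 18 promoters of mitochondrial genes (5.56%). These are matches of letters and not shown binding sites. Each line below gives 30 bases on the strand of the gene, 5′ to 3′, with the match in capitals on whichever strand it lies.
AARS, chr16:70289675-70289704, minus strand: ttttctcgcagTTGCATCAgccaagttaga
CARS, chr11:3057407-3057436, minus strand: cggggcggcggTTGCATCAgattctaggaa
GARS, chr7:30594834-30594863, plus strand: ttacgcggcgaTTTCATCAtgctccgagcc
IARS, chr9:92293692-92293721, minus strand: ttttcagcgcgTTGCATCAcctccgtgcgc
MARS, chr12:57488053-57488082, plus strand: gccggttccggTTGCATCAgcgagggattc
NARS, chr18:57621804-57621833, minus strand: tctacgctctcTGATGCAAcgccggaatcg
TARS, chr5:33440956-33440985, plus strand: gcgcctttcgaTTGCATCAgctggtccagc
YARS2, chr12:32756076-32756105, minus strand: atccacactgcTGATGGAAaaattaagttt
All 7 cytosolic genes with a match rose with quizalofop-p-ethyl at 1 mM, as described next, and YARS2, the mitochondrial gene with one, did not pass the test (log2 fold change 0.12); the match of AARS began 187 bases before its start site, and those of the other 6 within 33 bases of it. EPRS, FARSA, KARS, SARS and WARS rose with no match in the promoters of the table, while QARS fell and FARSB, HARS and RARS did not pass, also with none.

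In control the cytosolic genes had group means of 4.06 to 65.3 FPKM with a median of 17.8, and the mitochondrial genes 2.22 to 26.8 with a median of 4.68. QARS, which charges glutamine, stood highest among the cytosolic genes, and IARS2, which charges isoleucine in mitochondria, among the mitochondrial ones. The coefficient of variation over the 5 control libraries was under 20% in 18 of the 20 cytosolic and 11 of the 16 mitochondrial genes. It reached 121% in RARS2, the mitochondrial arginine enzyme, which ran from 0.259 to 8.00 FPKM.

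Quizalofop-p-ethyl at 1 mM was accompanied by higher levels of most cytosolic synthetase genes, while most mitochondrial ones did not pass the test. Of the 20 cytosolic genes 15 were higher than control, 1 was lower and 4 did not pass. Over all features tested 32.7% passed, 13% higher and 19.8% lower. All 5 treated libraries lay above all 5 control libraries in each of those 15 genes, which was so for 9.1% of all features. Of the 16 mitochondrial genes 1 was higher, 2 were lower and 13 did not pass. The median log2 fold change was 1.2 for the cytosolic genes, -0.07 for the mitochondrial genes and -0.08 for all features. Under median-ratio scaling of the libraries the cytosolic count became 18 higher and 0 lower, that of mitochondrial genes 1 and 0, and the split of all calls moved from 3142 higher and 4784 lower to 4135 and 4106.

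**Figure D1:**
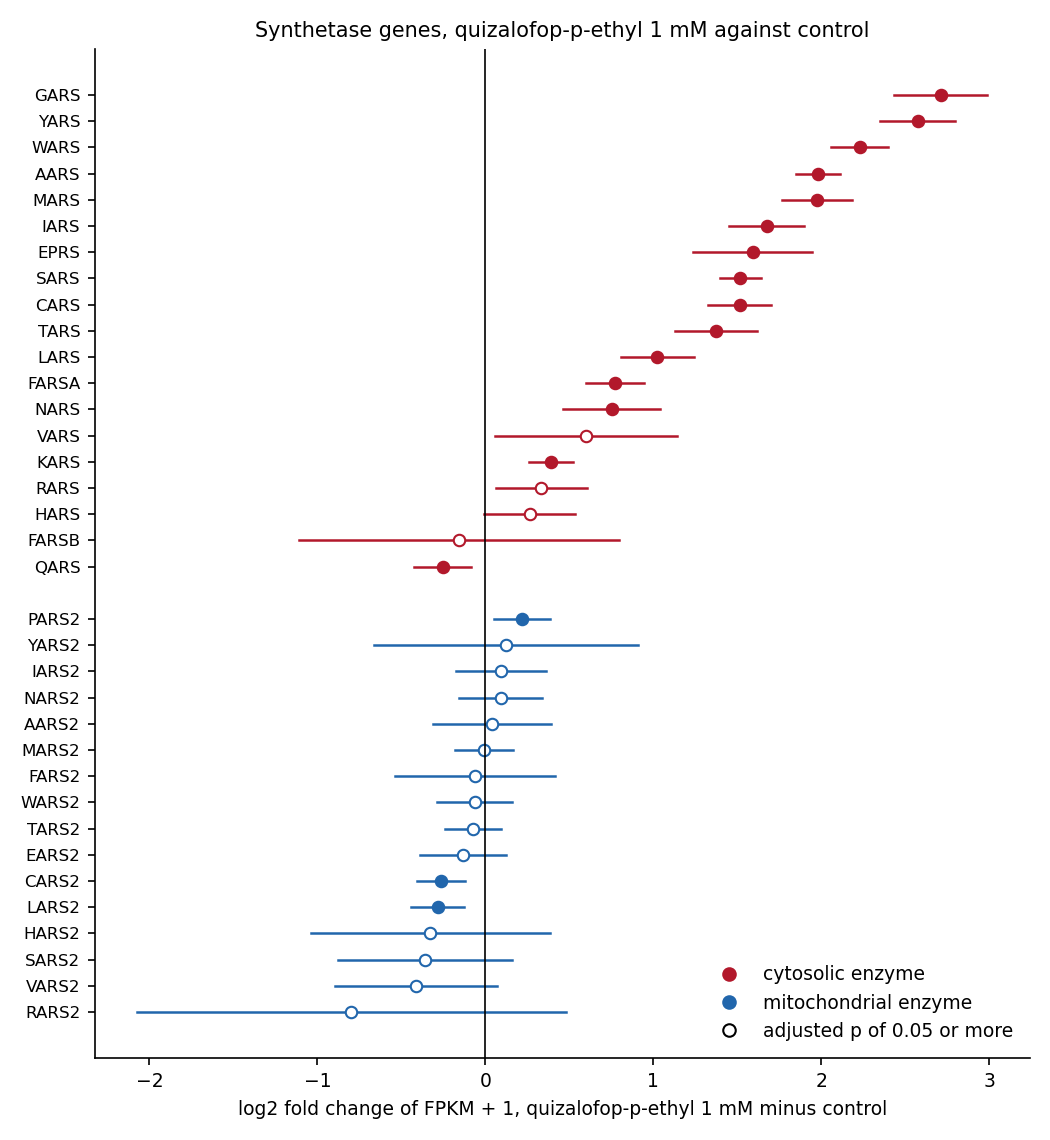
Log2 fold change of FPKM + 1 (points; bars, 95% confidence interval) for 35 synthetase genes at 1 mM quizalofop-p-ethyl against control, 5 libraries each. Filled points passed an adjusted p of 0.05; 14 of the 19 cytosolic genes drawn lie to the right with filled points, and mitochondrial genes lie between -0.80 and 0.22.

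GARS and YARS showed the greatest log2 fold changes of the 36 genes. GARS, the glycine enzyme (chromosome 7, 30594681 to 30634033, GRCh38), lay at 28.2, 33.9, 36.1, 40.9 and 46.5 FPKM in control and at 201, 211, 248, 267 and 314 with quizalofop-p-ethyl at 1 mM. The lowest treated library was thus several times the highest control library, and the log2 fold change was 2.71 (SE 0.14, adjusted p = 3.00e-20). YARS, the tyrosine enzyme (chromosome 1, 32775237 to 32818153), lay at 17.9, 17.9, 20.5, 22.9 and 24.8 FPKM in control and at 103, 129.5, 132, 135 and 142 after treatment. Its groups did not overlap either, with a log2 fold change of 2.57 (SE 0.11, adjusted p = 1.45e-22).

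WARS, AARS and MARS followed, for tryptophan, alanine and methionine. WARS (chromosome 14, 100333788 to 100376805) lay at 16.4 to 17.8 FPKM in control, the lowest coefficient of variation among the cytosolic genes (3.14%). With quizalofop-p-ethyl at 1 mM it lay at 71.1, 75.8, 87.3, 90.2 and 100.1 FPKM, a log2 fold change of 2.23 (SE 0.09, adjusted p = 2.49e-24). AARS (chromosome 16, 70252295 to 70289543) went from 34.2, 35.3, 36.8, 37.3 and 38.6 FPKM to 129, 139, 142, 156 and 170.3, a log2 fold change of 1.98 (SE 0.06, adjusted p = 1.26e-26). MARS (chromosome 12, 57475445 to 57517569) went from 22.5, 23.6, 24.2, 24.4 and 28 FPKM to 86.8, 98.1, 102, 103 and 107, a log2 fold change of 1.98 (SE 0.10). None of these 3 genes overlapped between the groups.

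A further 6 cytosolic genes rose by more than 1 on the log2 scale. SARS, the serine enzyme (chromosome 1, 109213918 to 109238169), had the highest level among them, at 52.9 to 57.4 FPKM in control and 139 to 199.8 after treatment, a log2 fold change of 1.52 (SE 0.06). IARS, for isoleucine, went from 21.7 to 28 FPKM up to 68.2 to 94.0 (log2 fold change 1.68), and EPRS, one protein that charges both glutamate and proline, from 10.0 to 18.5 up to 38.4 to 56.0 (1.59). CARS, for cysteine, went from 13.1 to 16.4 FPKM up to 40.8 to 45.4 (1.51), TARS, for threonine, from 12 to 15.6 up to 27 to 46.7 (1.37), and LARS, for leucine, from 14.9 to 16.7 up to 25.9 to 44.5 (1.02). These log2 values have SE of 0.06 to 0.18, so the order of SARS, EPRS and CARS is not resolved.

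FARSA, NARS and KARS rose less. FARSA, the alpha subunit of the phenylalanine enzyme, lay at 18.9 to 22.6 FPKM in control and 31.4 to 44.2 after treatment (log2 fold change 0.77). NARS, for asparagine, lay at 14.2 to 21.8 and 24.2 to 43.0 (0.75), and KARS, for lysine, at 33.5 to 41.3 and 45.1 to 54.6 (0.39). With the shallow library kept in the fit KARS did not pass (adjusted p = 0.319), nor did 1 further cytosolic gene that is counted here without its name.

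QARS fell slightly, and 4 cytosolic genes did not pass the test. QARS (chromosome 3, 49095932 to 49105135) lay at 61.4, 63, 66.9, 67.1 and 68.2 FPKM in control and at 43.6, 50.1, 56.9, 61.0 and 63.4 after treatment, so the groups overlapped (log2 fold change -0.26, SE 0.08, adjusted p = 0.0160). Without replicate 1 of the treated group its log2 fold change was -0.18 (adjusted p = 0.102) and without replicate 5 it was -0.23 (adjusted p = 0.0514). The call was also lost under median-ratio scaling (adjusted p = 0.291), with the shallow library kept (adjusted p = 0.507) and with the 2 groups fitted alone (adjusted p = 0.0937). RARS, for arginine, had a log2 fold change of 0.33 (adjusted p = 0.0536), HARS, for histidine, 0.26 (adjusted p = 0.137), VARS, for valine, 0.60 (adjusted p = 0.0853) and FARSB, the beta subunit of the phenylalanine enzyme, -0.16 (adjusted p = 0.842). In FPKM, RARS lay at 13.7 to 19.7 in control and 15.2 to 25.8 after treatment, HARS at 8.12 to 10.2 and 9.98 to 12.6, VARS at 4.60 to 21.3 and 15.3 to 19.9, and FARSB at 0.911 to 6.70 after treatment around a control range of 3.30 to 5.04. All 4 genes overlapped between the groups. RARS passed without control replicate 3 (adjusted p = 0.0334) or treated replicate 5 (adjusted p = 0.00787), and VARS without control replicate 2 (adjusted p = 0.0174).

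FARSB and VARS share their loci with assembled transcripts that carry no gene name in the table, with mean levels of 4 FPKM unnamed against 3.40 named for FARSB and 21.2 against 13.7 for VARS. With these added, FARSB lay at 5.40 to 7.03 FPKM in control and 8.59 to 16.5 with quizalofop-p-ethyl at 1 mM, with no overlap, and its log2 fold change turned to 0.74 (adjusted p = 0.000152). VARS lay at 30.6 to 37.6 and 42.9 to 51.4 FPKM, also without overlap, with a log2 fold change of 0.44 (adjusted p = 5.50e-05). NARS, with 11.5 FPKM unnamed against 20.4 named, kept its call (log2 fold change 0.91). RARS, whose locus holds no unnamed transcript, passed in that fit with adjusted p = 0.0399. The cytosolic counts were then 18 higher and 1 lower.

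Within the cytosolic set, 8 enzymes form the multisynthetase complex, a particle that holds several synthetases on scaffold proteins. Of these 8 genes 6 rose, QARS fell and RARS did not pass, with a median log2 fold change of 0.71. Of the 12 genes outside the complex 9 rose and none fell, with a median of 1.44. By catalytic fold, 6 of 9 class I genes rose and 1 fell, with a median of 1.51, and 8 of 10 class II genes rose, with a median of 0.76; EPRS belongs to both classes and is in neither count. These splits were not tested. AIMP2 and AIMP1, scaffold proteins of the complex, rose from 11.3 ± 1.26 to 24.3 ± 4.05 FPKM and from 3.53 ± 0.594 to 6.44 ± 1.57 (SD, n = 5), and the third scaffold gene, EEF1E1, did not pass.

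The mitochondrial genes moved little. CARS2, for cysteine (chromosome 13, 110641412 to 110713603), lay at 18.8, 19.5, 19.6, 19.7 and 20.1 FPKM in control and at 12.9, 15.1, 16.8, 17.5 and 18.9 with quizalofop-p-ethyl at 1 mM (log2 fold change -0.26, SE 0.07, adjusted p = 0.00307). LARS2, for leucine (chromosome 3, 45388506 to 45549421), lay at 5.40, 6.28, 7.02, 7.25 and 7.57 FPKM and at 4.55, 4.83, 5.35, 5.59 and 6.26 (log2 fold change -0.28, SE 0.08, adjusted p = 0.00357). The highest treated library overlapped the control range in both genes. PARS2, for proline (chromosome 1, 54756898 to 54764514), rose from 3.42, 3.55, 3.74, 3.84 and 4.08 FPKM to 4, 4.09, 4.46, 4.73 and 5.31, again with an overlap (log2 fold change 0.22, SE 0.08, adjusted p = 0.0361).

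All 3 mitochondrial calls were lost with the shallow library kept (adjusted p of 0.249, 0.484 and 0.499 for CARS2, LARS2 and PARS2) and with the 2 groups alone (0.0739, 0.0976 and 0.147), and the first 2 under median-ratio scaling (0.0932 and 0.0550). PARS2 also lost its call without control replicate 2, 3 or 5 or treated replicate 1, 2 or 3, where its log2 fold change was 0.17 to 0.22. The other 13 genes did not pass the test. IARS2, the highest, had 26.8 FPKM in control and 28.3 after treatment, TARS2, for threonine, 11.7 and 11.1, EARS2, for glutamate, 6.70 and 5.98, and MARS2, for methionine, 4.46 and 4.44. The means lay farther apart in RARS2 (2.77 and 0.664 FPKM), VARS2 (3.17 and 2.04), SARS2 (4.76 and 3.42) and HARS2 (5.11 and 4.04), whose 95% intervals all included 0. Among these 13, 95% intervals of the log2 fold change lay within -0.39 to 0.39 for AARS2, EARS2, IARS2, MARS2, NARS2, TARS2 and WARS2, and reached -2.07 to 0.48 in RARS2. RARS2 had 12 unnamed transcripts at its locus, and with them it lay at 6.13 to 8.88 FPKM in control and 6.94 to 10.8 after treatment (log2 fold change 0.09, adjusted p = 0.590). Unnamed transcripts at the loci of VARS2, HARS2, EARS2 and SARS2 could not be assigned, since each of these loci also holds another named gene.

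**Figure D2:**
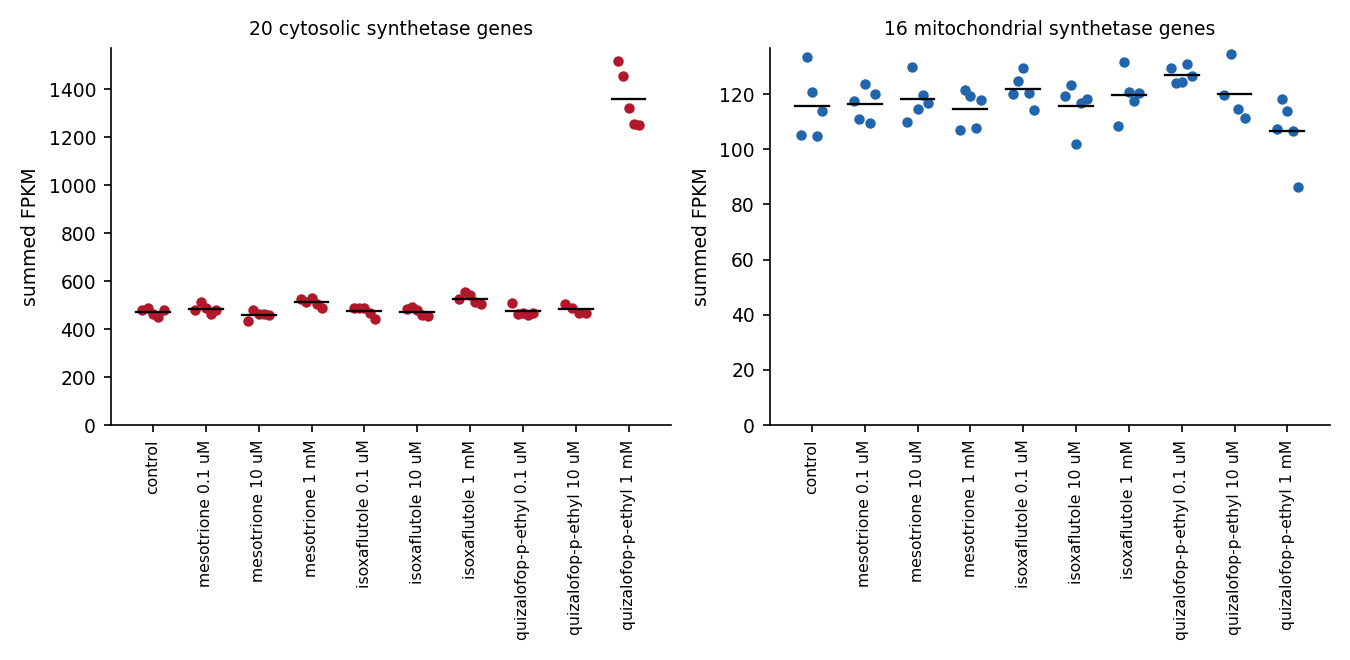
Summed FPKM of the 20 cytosolic and the 16 mitochondrial synthetase genes in each library (points; bar, group mean) over the 10 groups, the shallow library left out. Cytosolic sums at 1 mM quizalofop-p-ethyl lie at 1252 to 1520 FPKM, against 449 to 490 in control, and mitochondrial sums at 86.3 to 118, against 105 to 133.

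Summed over the genes of each set, the cytosolic level was 473 ± 16.2 FPKM in control and 1361 ± 121 with quizalofop-p-ethyl at 1 mM (SD, n = 5), and the mitochondrial level 116 ± 11.9 and 107 ± 12.3. The ratio of the 2 sums went from 4.12 ± 0.360 to 12.9 ± 1.37 (SD, n = 5). In the other 8 groups the mean of the cytosolic sum ran from 459.7 to 528 FPKM and that of the mitochondrial sum from 115 to 127.

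Each mitochondrial enzyme was also set against the cytosolic enzyme for its amino acid, which compares 2 genes within a library. The log2 ratio of cytosolic to mitochondrial FPKM + 1 was higher with quizalofop-p-ethyl at 1 mM than in control in 14 of 16 pairs at p under 0.05 (exact two-sided permutation test of 5 against 5 libraries, 16 pairs, unadjusted). In 12 pairs the libraries did not overlap (exact permutation p = 0.00794, the smallest that this test can give). The pair YARS and YARS2 had the greatest difference, from 2.75 ± 0.195 to 5.2 ± 0.144 (SD), and the pair FARSA and FARS2 the least among those 12, from 1.75 ± 0.0960 to 2.59 ± 0.298.

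NARS over NARS2 differed by 0.66 (exact permutation p = 0.0159) and VARS over VARS2 by 1.01 (exact permutation p = 0.0238), both with overlapping libraries. Without treated replicate 3, 4 or 5 the VARS pair missed the threshold (exact permutation p = 0.0556 each, difference 0.96 to 0.99). RARS over RARS2 differed by 1.13 (exact permutation p = 0.103; 0.0476 without control replicate 1 or 5) and HARS over HARS2 by 0.59 (exact permutation p = 0.278). HARS and HARS2 lie on opposite strands of chromosome 5 and their loci overlap between 140691426 and 140692024. EPRS is in 2 pairs, with EARS2 and PARS2, and KARS, GARS, QARS and FARSB are in none.

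**Figure D3:**
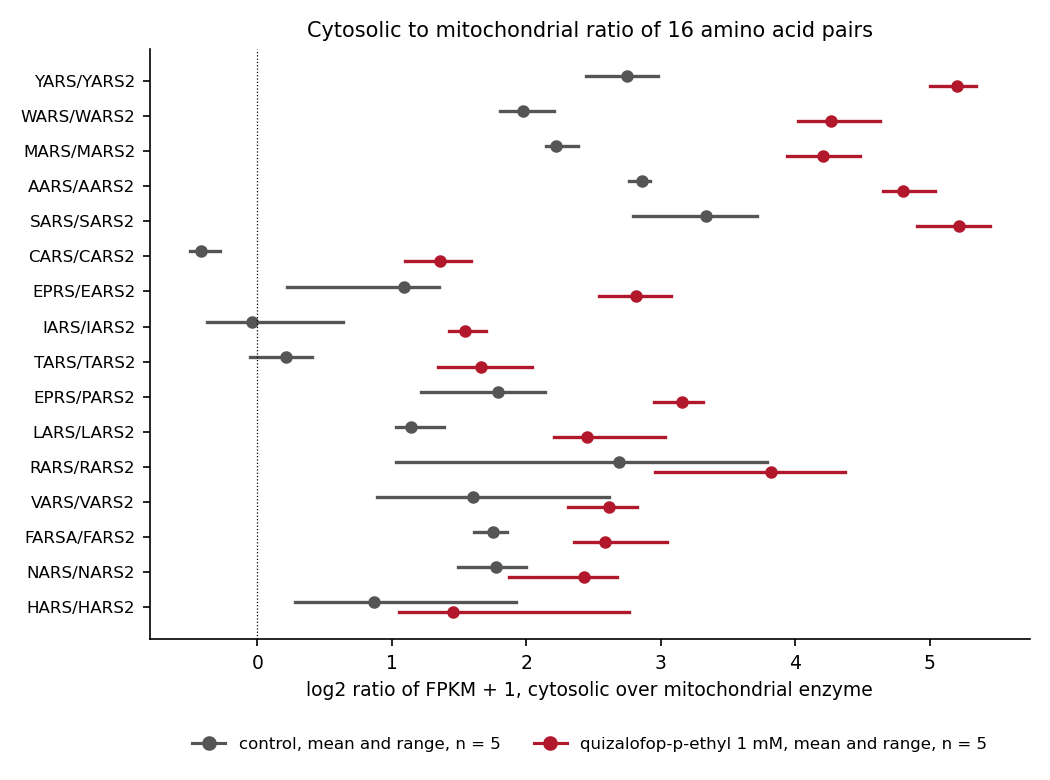
Log2 ratio of FPKM + 1 of the cytosolic over the mitochondrial enzyme in control (grey) and at 1 mM quizalofop-p-ethyl (red), for 16 pairs; points are means and bars the range over 5 libraries. The red range lies right of the grey range in 12 pairs and overlaps it in those of NARS, VARS, RARS and HARS.

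At 1 mM each of the other 2 herbicides gave 1 call among the synthetase genes, although levels of the cytosolic genes leaned upward. The cytosolic sums lay at 504 to 553 FPKM with isoxaflutole, above all control libraries (449 to 490), and at 489 to 532 with mesotrione, which overlapped them, and these sums were not tested. In AARS, EPRS, FARSA, HARS, LARS, MARS, SARS and WARS 4 of the 5 isoxaflutole libraries lay above every control library, with no call. The same was so for the mitochondrial gene NARS2, also with no call. The share of all features that did so was not counted, so these genes cannot be set against it. With isoxaflutole 1 of 36 genes passed, where 2.42% of all features did (1.16% higher and 1.26% lower). All comparisons with control share its 5 libraries. CARS lay at 14.0, 19.1, 19.2, 20.6 and 21.1 FPKM, against 13.1, 13.5, 13.7, 15.5 and 16.4 in control, with 1 treated library among the controls (log2 fold change 0.35, SE 0.09, adjusted p = 0.0287). The call was lost when any 1 of treated replicates 1 to 4 or control replicates 1, 3 or 4 was left out (log2 fold change 0.31 to 0.34), when the shallow library was kept (adjusted p = 1.00) and with the 2 groups alone (adjusted p = 0.216). A further 8 genes had an unadjusted limma p under 0.05. The median log2 fold change was 0.17 for cytosolic and 0.02 for mitochondrial genes, against -0.01 for all features.

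With mesotrione 1 of 36 genes passed, where 0.879% of all features did (0.178% higher and 0.702% lower). WARS lay at 20.5, 21.3, 22.0, 22.5 and 22.8 FPKM, above all control libraries (log2 fold change 0.33, SE 0.09, adjusted p = 0.0474). Leaving out any single library of the 2 groups, control replicates 1 to 5 and treated replicates 1 to 5, took the adjusted p to 0.0581 to 0.119, and keeping the shallow library took it to 1.00. AARS and IARS also lay above all controls, with log2 fold changes of 0.17 and 0.27 that did not pass (adjusted p = 0.274 and 0.382). The share of all features that lay above all controls with mesotrione is not given here, so these genes cannot be set against it. The hepatocyte markers summed to 13233 to 21778 FPKM with mesotrione and 11066 to 20397 with isoxaflutole at 1 mM, and their part in these calls was not tested.

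At 0.1 uM and 10 uM none of the 36 genes passed against control with any of the 3 herbicides (limma), and the share of all features that passed was 0% in 5 of these 6 comparisons and 0.00826% with quizalofop-p-ethyl at 10 uM (0.00413% in each direction). At an unadjusted p under 0.05 there were 2 genes for mesotrione at 0.1 uM, 0 at 10 uM, 2 and 4 for isoxaflutole, and 3 and 0 for quizalofop-p-ethyl. Outside the group at 1 mM quizalofop-p-ethyl the highest library stood at 55.5 FPKM for GARS, 28.7 for YARS, 22.8 for WARS, 35.5 for MARS and 61.2 for SARS, all below the lowest library of that group for the same gene.

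**Figure D4:**
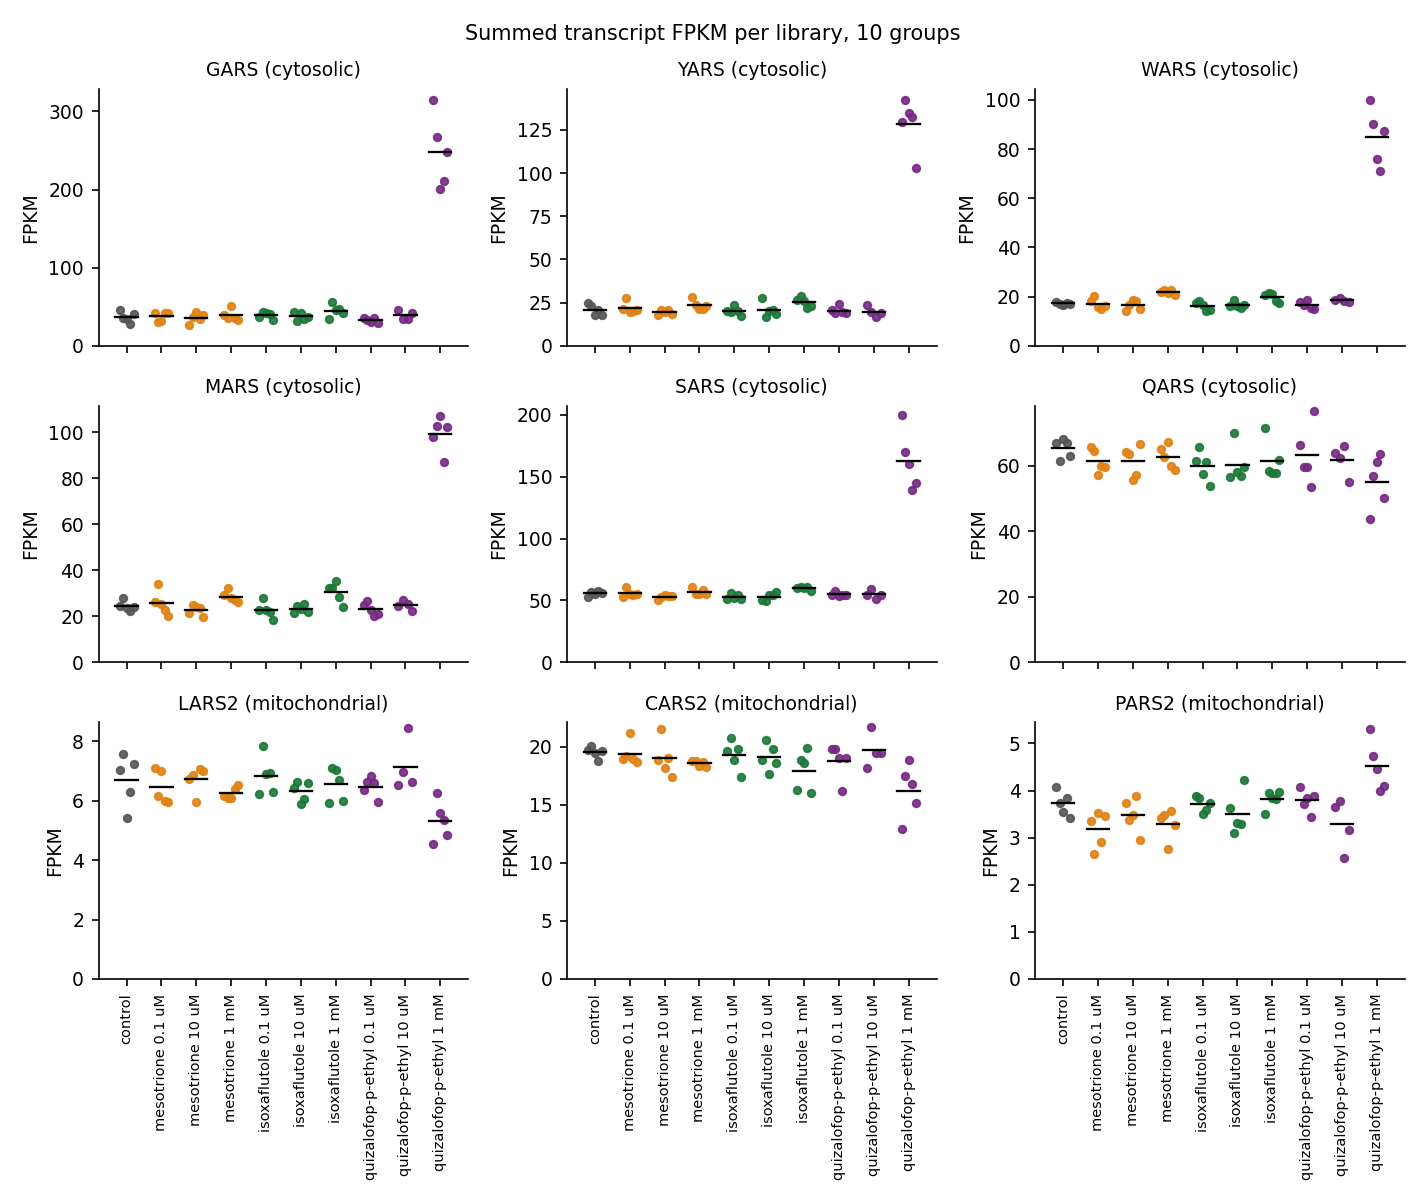
FPKM of 9 synthetase genes in each library (points; bar, group mean) over the 10 groups, the shallow library left out. GARS, YARS, WARS, MARS and SARS stand above all other groups at 1 mM quizalofop-p-ethyl; QARS, LARS2, CARS2 and PARS2 differ by under 0.3 on the log2 scale there.

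The compounds were compared directly at each concentration. At 1 mM, 15 cytosolic genes were higher with quizalofop-p-ethyl than with isoxaflutole and LARS2 was lower (29.7% of all features passed, 11.7% higher and 18.1% lower). Against mesotrione 15 cytosolic genes and PARS2 were higher, and CARS2 and LARS2 lower (30.2% of all features, 12.6% higher and 17.6% lower). These comparisons share the quizalofop-p-ethyl libraries. With the shallow library kept, the calls of FARSA (adjusted p = 0.127 against isoxaflutole and 0.0584 against mesotrione), KARS (0.588 and 0.499) and LARS2 (0.561 and 0.658) were lost in both comparisons, those of CARS2 (0.445) and PARS2 (0.233) against mesotrione, and that of 1 further cytosolic gene in both. LARS2 also lost both calls under median-ratio scaling (adjusted p = 0.0789 and 0.224) and with the 2 groups alone (0.110 and 0.165), as did CARS2 against mesotrione (0.273 and 0.189). Against mesotrione, CARS2 was lost without mesotrione replicate 1, 2 or 4 or quizalofop-p-ethyl replicate 1 or 5 (log2 difference -0.19 to -0.12), and LARS2 without any 1 mesotrione replicate, 1 to 5, or quizalofop-p-ethyl replicate 1, 4 or 5 (-0.21 to -0.16). The log2 difference in GARS was 2.44 (95% interval 2.16 to 2.72) against isoxaflutole and 2.64 (2.36 to 2.92) against mesotrione, and in both comparisons all 5 quizalofop-p-ethyl libraries lay above. Between isoxaflutole and mesotrione at 1 mM no synthetase gene passed (limma; 1 at an unadjusted p under 0.05, and 0.256% of all features passed, 0.231% higher and 0.0248% lower). The 95% interval of that difference was 0.03 to 0.41 for CARS and -0.31 to 0.03 for WARS, so these intervals leave room for small differences. At 0.1 uM and 10 uM no synthetase gene passed in any of 6 direct comparisons, with 0 to 2 genes at an unadjusted p under 0.05 (limma). Of all features 0.00413% passed between quizalofop-p-ethyl and isoxaflutole at 10 uM and 0.0124% between quizalofop-p-ethyl and mesotrione (0.00826% higher and 0.00413% lower), and 0% in the other 4.

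Single transcripts showed how the rise was spread within genes at 1 mM quizalofop-p-ethyl. Of 135 transcripts of the 36 genes that were tested, 37 were higher than control and 3 lower, where 11.9% of all 54806 transcripts passed, 4.97% higher and 6.89% lower. In AARS, GARS, MARS, SARS, EPRS, FARSA, NARS and TARS 1 transcript held 70.3% or more of the level in control and rose with the gene. In LARS 1 transcript held 71.5% but did not pass (log2 fold change 1.01, limma adjusted p = 0.206). The leading transcript of KARS, with 49.5%, did not pass either (limma adjusted p = 0.554). In WARS, transcript ENST00000392882 lay at 2.31 to 5.49 FPKM in control and at 49.3, 56.8, 61.7 and 66.6 in 4 treated libraries, but at 5.71 in replicate 4 (log2 fold change 3.11, adjusted p = 1.39e-08). In that replicate ENST00000355338, which begins farther upstream, stood at 44.6 FPKM, against 2.09 to 4.18 in the other 4 and 4.04 to 9.24 in control. The summed WARS level in that replicate, 71.1 FPKM, was the lowest of the 5 and still above all controls.

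IARS and YARS also changed in their leading transcript. ENST00000375643 of IARS rose from 0.150 to 12.8 FPKM in control to 21.5 to 59.4, from 22.7% to 55.3% of the gene, while ENST00000443024 rose from 10.6 to 22.7 to 22.8 to 42.0. In YARS the short transcript ENST00000616261 lay at 88.8, 89.4 and 91.6 FPKM in 3 treated libraries and at 15.4 and 19.3 in the other 2, where the long transcript ENST00000373477 stood at 47.7 and 55.5 instead of 17.7 to 22.5. In CARS, ENST00000278224 and ENST00000380525 rose (log2 fold change 1.69 and 1.73), while ENST00000397111, the highest in control, lay at 0.928 to 23.7 FPKM after treatment (log2 fold change -0.01, adjusted p = 1.00). In CARS2, ENST00000257347 fell from 13.2 to 14.6 FPKM down to 4.87 to 10.4 (log2 fold change -0.69, adjusted p = 7.38e-06). ENST00000485188 of the same gene rose from a mean of 0.150 to 1.47 FPKM (log2 fold change 1.04, limma adjusted p = 0.000145). The other 2 lower transcripts were ENST00000606933 of TARS2 (-1.38) and ENST00000235521 of WARS2 (-0.62). Transcripts that overlap share fragments, so their split is an estimate and less certain than the sum of a gene.

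**Figure D5:**
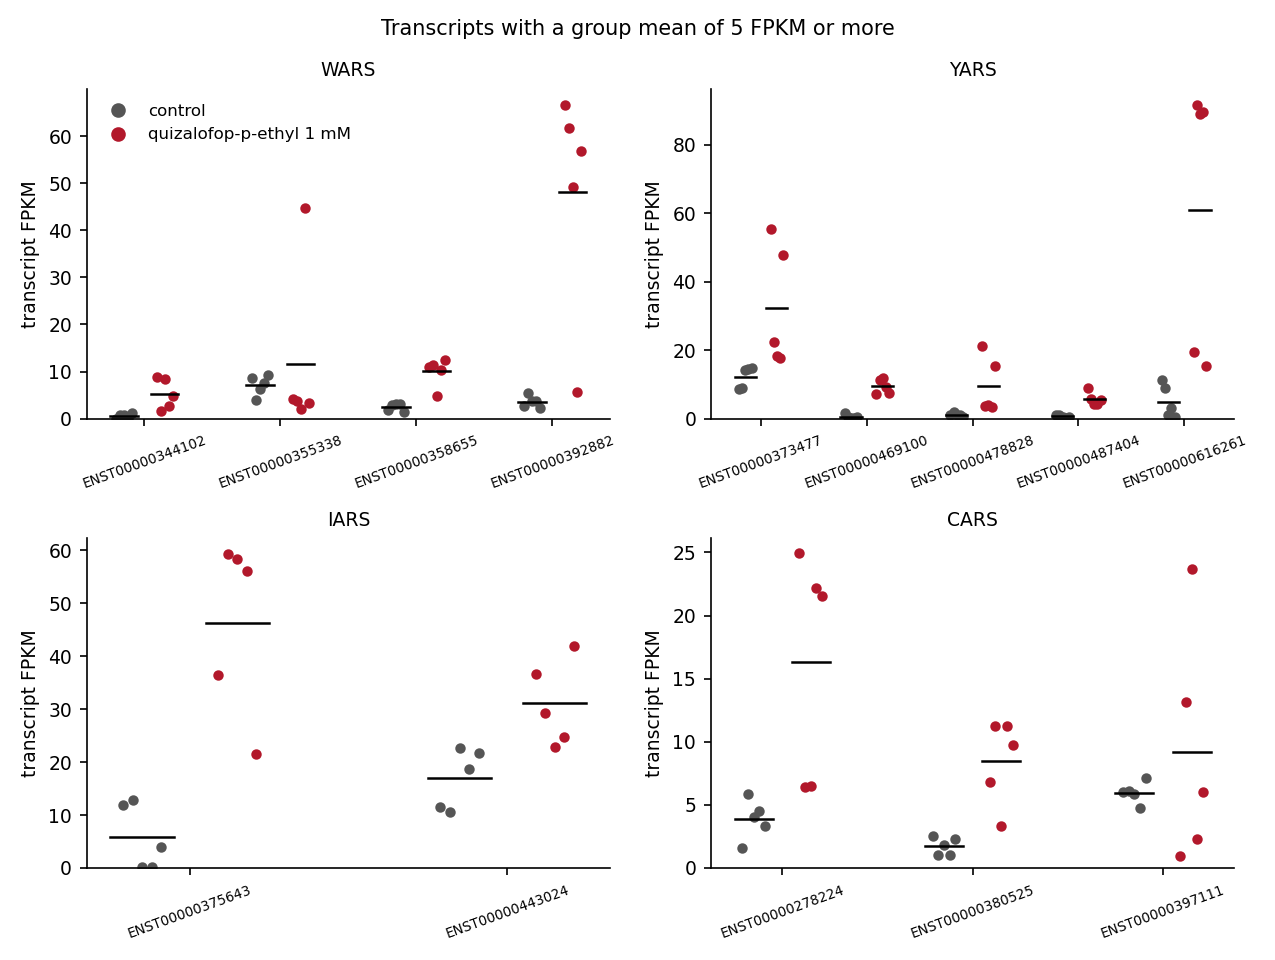
FPKM of the transcripts of WARS, YARS, IARS and CARS with a group mean of 5 FPKM or more, in control (grey) and at 1 mM quizalofop-p-ethyl (red); points are libraries and bars means of 5. The red points of WARS ENST00000392882 lie at 49.3 to 66.6 FPKM except for 1 at 5.71, where ENST00000355338 reaches 44.6.

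Genes that act around the synthetases were counted in lists chosen with earlier results of these data known. Of 21 ATF4 pathway genes tested, of 25, 18 rose and 1 fell with quizalofop-p-ethyl at 1 mM, with a median log2 fold change of 2.46. Over all features tested in that comparison 13% were higher and 19.8% lower. TRIB3, a pseudokinase of the stress response, went from 11.3 ± 0.774 to 234 ± 59.1 FPKM, ASNS, which makes asparagine, from 8.87 ± 0.782 to 96.4 ± 12.7, SLC3A2, the heavy chain of amino acid transporters, from 46.8 ± 6.31 to 541 ± 79.6, and CHAC1, which degrades glutathione, from 1.84 ± 0.578 to 31.4 ± 5.52 (SD, n = 5). ATF4 itself went from a mean of 61.7 to 292 FPKM (log2 fold change 2.23, adjusted p = 1.59e-15). The 1 gene that fell was ALDH18A1, an enzyme of proline synthesis (-0.45); it and the genes that fell in the next lists were named after their values were seen. At 1 mM isoxaflutole and mesotrione each raised 6 of the 21, ASNS by 0.75 and 0.86 on the log2 scale, with ATF4 at 0.02 and 0.04, which did not pass. Of all features 1.16% were higher with isoxaflutole and 0.178% with mesotrione.

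Of 14 genes of eIF2 and its regulators 7 rose and 1 fell, among them PPP1R15A, which directs the phosphatase of eIF2 (17.9 ± 1.73 to 152 ± 63.6 FPKM), and EIF2S2, its beta subunit (12.5 ± 5.16 to 36 ± 13.5; SD, n = 5). The gene that fell was EIF2AK4, the eIF2 kinase that senses uncharged tRNA (25.4 ± 1.78 to 21.3 ± 1.89 FPKM; SD, n = 5). Of 16 genes of tRNA transcription and nuclear export tested, of 17, 6 rose and 2 fell; XPOT, the export receptor of tRNA, went from 4.89 ± 0.770 to 22.9 ± 4.35 and POLR3D, a subunit of RNA polymerase III, from 5.63 ± 0.859 to 14.4 ± 4.80 (SD, n = 5), while POLR3B and GTF3C1 fell by 0.29 and 0.22 on the log2 scale. Of 6 cytosolic elongation factors 4 rose, EEF1B2 by 0.87, EEF1D by 0.76, EEF2 by 0.49 and EEF1A1 by 0.35 on the log2 scale. Of 10 other synthetase and aminoacyl-tRNA genes 3 rose, QRSL1 by 0.60, DTD1 by 0.50 and GATB by 0.25 on the log2 scale. The counts of these lists stand beside 13% of all features higher and 19.8% lower with quizalofop-p-ethyl at 1 mM.

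On the mitochondrial side of translation, none of 9 translation factors passed (limma; 0 also at an unadjusted p under 0.05). Of 78 mitochondrial ribosomal protein genes 16 rose and 9 fell, with a median log2 fold change of 0.06. Both directions together made a share near the 32.7% of all features that passed. By direction 13% of all features were higher and 19.8% lower, so the rises stood above and the falls below these shares. That lean was not tested. MRPS2 went from 17.1 ± 0.739 to 26.7 ± 0.886 FPKM and MRPL10 from 17.4 ± 3.85 to 26.1 ± 1.62, while MRPL16 went from 13.5 ± 1.78 to 8.25 ± 2.01 and MRPL20 from 29.6 ± 4.24 to 19.8 ± 3.95 (SD, n = 5).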

How the data were processed

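Per the labels' protocols, RNA of 50 libraries was sequenced as stranded total RNA after removal of ribosomal RNA, in 3 pools that the sources used here do not map to libraries. Per the submitters' processing notes, reads were handled with StringTie, HISAT2 and HISAT on GRCh38; versions and the role of each are not stated there. The authors deposited 1 table of FPKM for 239290 transcripts. In 20 deposited columns 24 values lay just below 0, so those columns were recorded as a score; these values were set to 0. Because FPKM is a share of each library, a gain in abundant RNA lowers the rest.

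Transcript FPKM were summed by gene name, and 40117 unnamed transcripts were summed by locus. Features with at least 1 FPKM in at least 5 libraries entered the test (24222). The test was limma 3.58.1 (R 4.3.3) on log2 of FPKM + 1, with a mean for every group, 49 libraries and variances moderated with a trend and robustly; p-values were adjusted by Benjamini-Hochberg over all features of a comparison, with a threshold of 0.05. A fold change on this scale understates the change of low genes. The fit was tested on simulated data. Pair ratios used an exact permutation test. Members are named, except 1 cytosolic gene that is counted but not reported here by name, as are some listed genes; in other lists up to 4 genes past the threshold with the greatest change. The members, lists and rules were chosen with earlier results of these data known. Alternatives were median-ratio scaling, a pseudocount of 0.1, all 50 libraries, no filter, 2 groups alone, a block for runs of sample numbers, unnamed transcripts added to their locus's only named gene, the highest transcript by itself, and each library left out. Python 3.11.15, pandas 2.3.3, numpy 2.4.6, scipy 1.17.1 and matplotlib 3.10.9 were used.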

Additional observations from a re-analysis of the deposited data

Results flagged for a closer look

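In control and the 3 groups at 1 mM, 144 sets of 5 values, 1 per synthetase gene and group, were examined for a library that stood apart from the others by Dixon's 95% criterion, which chance alone meets in about 1 in 20 sets, and 6 did. With isoxaflutole, replicate 5 was low for CARS (14.0 FPKM, others 19.1 to 21.1) and SARS (57.4, others 60.1 to 61.2). With quizalofop-p-ethyl, replicate 5 was low for IARS2 (20.3, others 29.7 to 31.5) and MARS2 (3.64, others 4.50 to 4.79). In the same group EARS2 was high in replicate 2 (6.87, others 5.62 to 5.88) and RARS2 in replicate 3 (1.78, others 0.152 to 0.620).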

How the results depend on the processing

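The count of 15 cytosolic genes higher at 1 mM quizalofop-p-ethyl stayed within 11 to 18 under all alternatives, with 15 to 16 when 1 library was left out, and the 2 counts against the other compounds within 12 to 20, where calls of CARS2 and LARS2 were also lost without the filter against mesotrione. The small counts moved. The 1 cytosolic gene lower became 0 with median-ratio scaling, all 50 libraries, the 2 groups alone and the highest transcript by itself (0 to 1 with a library left out). The 1 mitochondrial gene higher became 0 without the filter, with 50 libraries, the 2 groups alone and the highest transcript (0 to 1), and the 2 lower became 0 with scaling, 50 libraries and the 2 groups alone. For isoxaflutole the count of 1 became 0 without the filter, with 50 libraries, the 2 groups alone and the highest transcript, and 2 with the replicate block (0 to 2); for mesotrione 0 with the pseudocount of 0.1, without the filter, with 50 libraries and the highest transcript (0 to 0). At the lower concentrations and between isoxaflutole and mesotrione the counts stayed at 0, and the 14 pair ratios became 13 to 15 with a library left out. Over all features 7926 calls at 1 mM quizalofop-p-ethyl became 4645 with 50 libraries.

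Log2 fold changes that turned sign at 1 mM quizalofop-p-ethyl were, with scaling, FARS2 (0.040), MARS2 (0.091), TARS2 (0.036) and WARS2 (0.029); with unnamed transcripts, FARSB (0.74), IARS2 (-0.053) and RARS2 (0.086); and with the highest transcript, CARS (-0.0077, and -0.17 against isoxaflutole), HARS (-0.019) and TARS2 (0.19). With a library left out, FARSB ran from -0.35 to 0.15, HARS2 from -0.56 to 0.044, IARS2 from -0.062 to 0.20, MARS2 from -0.036 to 0.050 and WARS2 from -0.14 to 0.014. The cause was not tested. The block used 5 runs of consecutive sample numbers, which the labels do not call batches; libraries of a run correlated by 0.0119 to 0.0771 in their deviations from group means, and not every run correlated best with itself. It changed no other count of synthetase genes that passed, while the calls over all features at 1 mM quizalofop-p-ethyl went from 7926 to 8163. Depth is not in the table, so no counting error could be set beside low values.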
